A study of Homo sapiens with 6 samples.

Results

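Near the start of human chromosome 1 lies a nuclear copy of mitochondrial DNA, and the small RNA reads counted on it are described here. The windows were chosen by position alone: every window of the count table on chromosome 1 whose start lies from 628000 to 636000 (GRCh38), and any window on the mitochondrial chromosome. The rule found 11 of the 53603 windows in the table, and 0 of them lay on the mitochondrial chromosome itself. The submitters label 7 of the 11 as tRNA and 4 as lncRNA windows. Small RNA came from HEK293T, an established human embryonic kidney cell line, collected 48 h after transfection with 150 nM of either a control siRNA (control arm, 3 libraries) or an siRNA against La (La knockdown arm, 3 libraries). The series text calls the 3 libraries of each arm biological replicates. La, the protein product of SSB, binds the oligo(U) tail that RNA polymerase III leaves on its transcripts. Both arms received a transfection, and the counts do not measure marker mRNAs, so the cell line is taken from the labels. Total counts ran from 3066299 to 4105806 per library, and a window spans 400 bp, from 150 bp before to 250 bp after a listed start site.

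Human mitochondrial DNA is transcribed inside the organelle by its own RNA polymerase, POLRMT, as long RNAs from both strands. Most of its tRNA genes stand between protein and rRNA genes, and the tRNAs are cut out at their 5′ end by the mitochondrial RNase P and at their 3′ end by ELAC2, which also frees the neighbouring mRNAs. The tRNAs then receive a CCA tail. Neither this transcription nor this trimming uses RNA polymerase III. Copies of mitochondrial DNA inserted in nuclear chromosomes keep the gene order of their source, so a short read can match both.

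The annotation shows what these windows cover. RefSeq and GENCODE 29 both place pseudogenes of 7 mitochondrial protein genes side by side here: MTND1P23, MTND2P28, MTCO1P12, MTCO2P12, MTATP8P1, MTATP6P1 and MTCO3P12, copies of genes for subunits of complex I, cytochrome c oxidase and ATP synthase. All 11 windows also lie within AL669831.3, a transcribed processed pseudogene on the minus strand in GENCODE, and in its introns, since 0 of their bases overlap its exons. Aligned with their mitochondrial sources, the 7 pseudogenes were identical at 98.4% of aligned bases, from 97.6% for MTATP8P1 to 98.7% for MTCO1P12. Of all stretches of 25 bases in the 7 pseudogenes, 65.7% occur unchanged in the mitochondrial gene. A read of that length from such a stretch cannot be assigned to chromosome 1 or to the mitochondrial chromosome by its sequence. How the submitters treated reads with several positions was not given in the sources used here, so the counts below are counts at these windows, not a measure of transcription of chromosome 1.

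The pseudogenes that flank each gap sit at the same distance from their mitochondrial sources, and this shift places 11 mitochondrial tRNA genes in the gaps. The 5′ ends of MT-TQ, MT-TW, MT-TN, MT-TD and MT-TK fall on the start site of windows tRNA_52527, tRNA_52530, tRNA_52529, tRNA_52531 and tRNA_52532 to the base, and that of MT-TS1 lies 2 bp from that of tRNA_51398. The remaining tRNA window, tRNA_52528, overlaps tRNA_52527 by 372 bp. These 6 tRNA genes are shown as the mitochondrial chromosome carries them (GENCODE 29, GRCh38, strand of the gene), because they set the windows. Capitals mark the anticodon, found as its only occurrence after a T within the middle of the gene, and in MT-TS1, written as RNA, the stretch shared with a miRNA.
MT-TQ (glutamine): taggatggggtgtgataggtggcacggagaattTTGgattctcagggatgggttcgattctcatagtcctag
MT-TW (tryptophan): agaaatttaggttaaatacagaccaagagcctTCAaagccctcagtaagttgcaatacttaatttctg
MT-TN (asparagine): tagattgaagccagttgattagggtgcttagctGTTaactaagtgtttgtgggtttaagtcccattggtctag
MT-TD (aspartate): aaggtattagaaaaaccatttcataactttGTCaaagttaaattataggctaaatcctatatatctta
MT-TK (lysine): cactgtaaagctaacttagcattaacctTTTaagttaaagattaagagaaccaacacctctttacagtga
MT-TS1 (serine): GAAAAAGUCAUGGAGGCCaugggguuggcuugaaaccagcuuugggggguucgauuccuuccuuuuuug

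Windows tRNA_51398 and tRNA_52531 also hold MIR12136, a miRNA gene that RefSeq places on the minus strand of chromosome 1 (GRCh38.p14, positions 632615 to 632685). Its 71-base hairpin is MT-TS1, all 69 bases of it, followed by 2 more bases. The mature miRNA is shown with its seed (bases 2 to 8) in capitals, because it equals the first 18 bases of the serine tRNA above, so these counts cannot tell the miRNA from the 5′ end of that tRNA.
hsa-miR-12136: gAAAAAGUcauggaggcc

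The 4 lncRNA-labelled windows hold no placed tRNA gene and lie on MTATP6P1 and MTCO3P12. In mitochondrial DNA the junction of MT-ATP6 and MT-CO3 is a boundary between mRNAs with no tRNA in it. A stretch of 106 bases that belongs to windows lncRNA_25640 and lncRNA_25642 and not to lncRNA_25641 (chr1:634225-634330, plus strand, GENCODE 29) is shown with its mitochondrial counterpart (chrM:9056-9161). It is shown because lncRNA_25642 exceeded lncRNA_25641 by the largest part of its own count among the overlapping window pairs compared. Not every overlapping pair was compared, and lncRNA_914 with lncRNA_25640 was left out. Capitals mark the 2 bases at which both copies differ.
MTATP6P1: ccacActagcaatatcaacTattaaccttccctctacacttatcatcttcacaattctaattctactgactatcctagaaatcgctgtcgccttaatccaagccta
MT-ATP6: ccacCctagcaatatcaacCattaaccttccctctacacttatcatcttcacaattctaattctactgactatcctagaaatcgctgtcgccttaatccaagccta

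**Figure D1:**
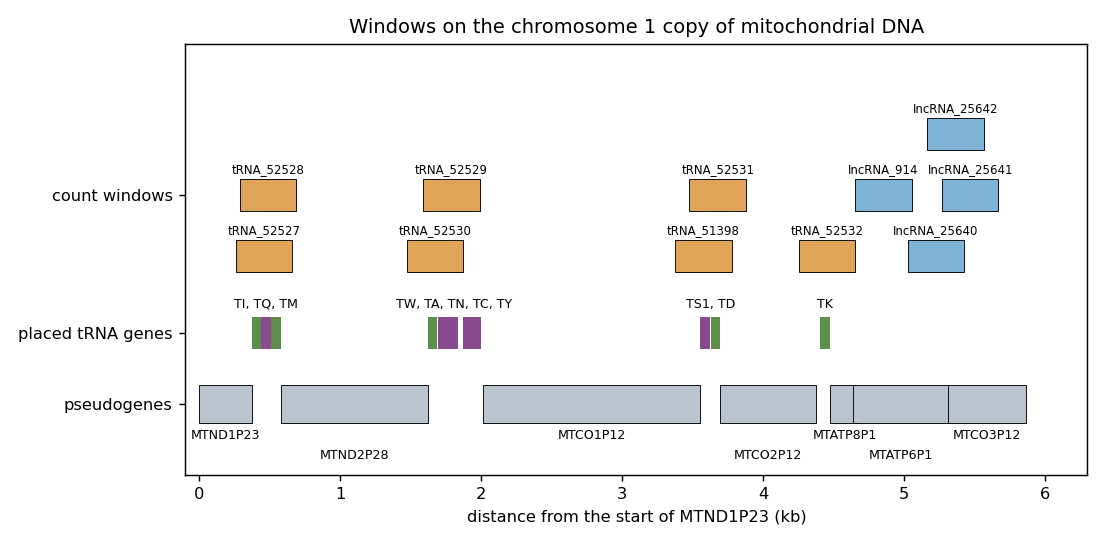
Positions of the 7 pseudogenes (grey), the placed mitochondrial tRNA genes (green, plus strand, and purple, minus strand, names without the MT- prefix) and the 11 count windows (orange, tRNA-labelled, and blue, lncRNA-labelled) as distance in kb from the start of MTND1P23. The 7 tRNA-labelled windows sit on the gaps that hold tRNA genes, and the 4 lncRNA-labelled windows sit on MTATP6P1 and MTCO3P12.

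All 11 windows had enough reads to be tested, and overlapping windows share reads, so they make 5 separate stretches. Every window is 400 bp long, so counts were compared without a correction for length. The windows differ in other ways, so their order is one of counts and not of RNA levels. Short stretches of sequence that occur unchanged in the mitochondrial gene made up 42.1% of MTATP8P1 and 79.0% of MTND1P23, the extremes of the 7 pseudogenes. The windows also cover different numbers of tRNA genes. What part either difference has in the order was not tested. The highest counts were at the tryptophan to cysteine tRNA genes, where tRNA_52529 had a mean of 1031 counts over the 6 libraries. It ranked 295 of all windows and 84 of the tRNA windows. The lysine window tRNA_52532 had a mean of 542.7 counts and the glutamine window tRNA_52527 one of 525.3. The serine and aspartate window tRNA_52531 followed with 442.5 counts, and the lowest were the lncRNA-labelled windows, from 187.8 in lncRNA_25642 to 70.5 in lncRNA_914. In the control arm the ranges of CPM (counts scaled to a common library size with TMM factors) of the lysine and glutamine windows overlapped, so these neighbours in the order did not differ beyond their spread. The lysine range, from 99.5 to 333 CPM, also overlapped those of tRNA_52529 and tRNA_52531.

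Within the overlapping windows the counts show where reads lay. The pair tRNA_52527 and tRNA_52528 differed by at most 12 counts in a library. Window tRNA_52529 exceeded tRNA_52530 by 82 to 135 counts in each of the 6 libraries or 7.41% to 11.9% of its own count. Both cover MT-TW, MT-TA and MT-TN whole, over the 282 bp they share. MT-TC, placed from 630931 to 630996, lies whole in tRNA_52529 alone, but tRNA_52530 ends at 630931 and so touches it. Part of MT-TY also lies in tRNA_52529 and not in tRNA_52530. Which of these genes the extra counts came from was not tested. Window lncRNA_25642 exceeded lncRNA_25641 by 69, 65 and 79 counts in control replicates 1 to 3 and in the La knockdown arm by 60, 129 and 51. If a window counts each read that touches it, at least this many reads touched the 106-base stretch printed above without reaching the last 294 bp of lncRNA_25642. The count differences equalled 51.1%, 45.5% and 42.2% of the count of lncRNA_25642 in the control arm and 37.3%, 37.0% and 33.6% in the La knockdown arm. Reads that touch lncRNA_25641 alone lower this difference, so it is a net value and not the share of reads on the stretch. These net percentages did not overlap between the arms (exact permutation test, two-sided p = 0.1, the smallest possible with 3 against 3, unadjusted, 1 of 5 such window pairs compared, with p from 0.1 to 0.8). Which of the 2 windows' own reads set the arms apart was not tested.

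Between the arms, 0 of the 11 windows passed the test (quasi-likelihood test of edgeR, p adjusted by Benjamini-Hochberg over 1064 windows, threshold 0.05, n = 3 per arm). Over all windows tested, 5.45% were called, 4.79% lower and 0.658% higher in La knockdown. DESeq2 also called 0 of the 11, and 99 over all windows, where edgeR called 58. At an unadjusted p under 0.05, edgeR had 3 of the 11 higher and 0 lower in La knockdown, beside 9.68% and 14.2% of all windows tested. These 3 were lncRNA_914, lncRNA_25642 and lncRNA_25641, which share reads in part. DESeq2 had 5 of the 11 higher at that level, but its share over all windows was not counted, and the edgeR shares do not stand for it. Without La knockdown replicate 2 the 3 became 0, and without control replicate 1 also 0. The fitted change was above 0 in 10 of the 11 windows with TMM factors, against 46.8% of all windows tested (53.2% lower). It was above 0 in 8 with library size alone, in 8 without La knockdown replicate 2 or 3, and in 6 with no filter on low counts. The median log2 change was 0.48 over the 11 windows and -0.05 over all windows tested. The lysine window was the 1 below 0 with TMM factors.

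**Figure D2:**
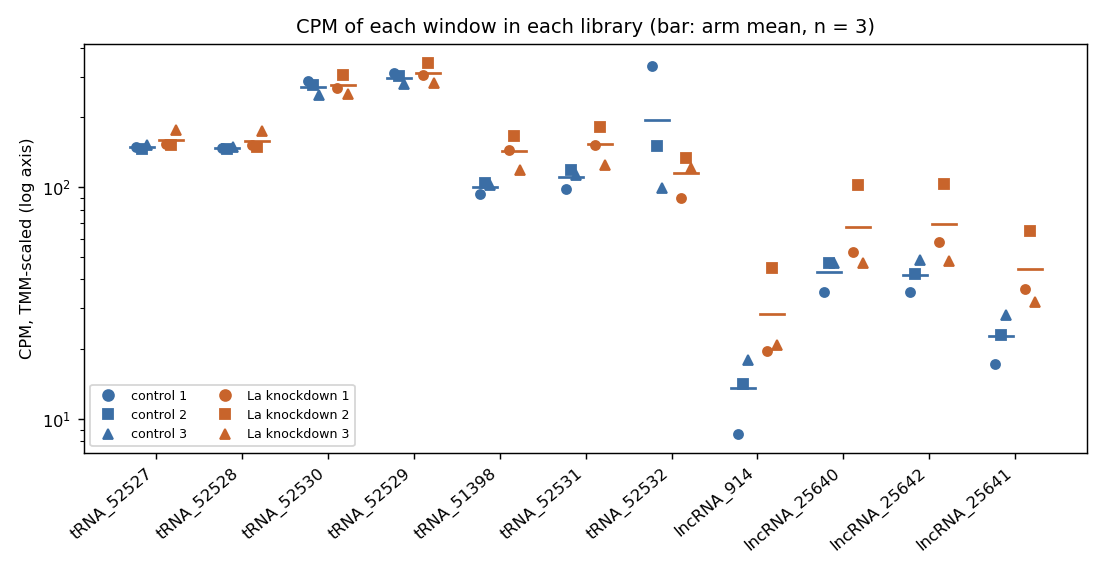
CPM scaled by TMM factors (log axis) of each of the 11 windows in each of the 6 libraries, in order along the chromosome; short bars are arm means of 3 libraries. The glutamine and tryptophan windows (the leftmost 4) sit at like levels in both arms, control replicate 1 stands apart in tRNA_52532 at 333 CPM, and La knockdown replicate 2 is the highest library in all 4 lncRNA-labelled windows.

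The glutamine and tryptophan stretches differed least. The glutamine window tRNA_52527 (chromosome 1, positions 629321 to 629720), which covers MT-TI, MT-TQ and MT-TM, had 572, 493 and 585 counts in the control libraries, in order of replicate, and 427, 515 and 560 in the La knockdown libraries. Scaled, this was 149 ± 2.95 CPM in control and 160.4 ± 13.9 CPM in La knockdown (SD, n = 3), a log2 change of 0.11 (SE 0.22, edgeR adjusted p = 0.752). The scaled ranges of the arms did not overlap, but the gap was smaller than the spread within the La knockdown arm, and it closed with library size alone. The tryptophan window tRNA_52529 (positions 630650 to 631049) had 1188, 1019 and 1072 counts in control and 848, 1170 and 891 in La knockdown. Its mean level was 296 ± 16.7 CPM in control against 309.8 ± 32.4 CPM in La knockdown (SD, n = 3), with a log2 change of 0.06 (SE 0.22, edgeR adjusted p = 0.856). The libraries of both arms lay among each other there, and with library size alone the sign of the change in this window and in tRNA_52530 turned, to -0.01 and -0.05. Without La knockdown replicate 2 it turned in both too, to -0.04 and -0.08.

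The serine and aspartate stretch was higher in La knockdown without passing the test. Window tRNA_52531 (positions 632539 to 632938) had 377, 401 and 437 counts in control and 425, 619 and 396 in La knockdown. That was 98.4, 119 and 113 CPM against 152, 182 and 125 CPM, so each La knockdown library lay above each control library. With library size alone the ranges of the arms overlapped in this window. The log2 change was 0.48 (SE 0.24, edgeR adjusted p = 0.241), and 0.32 without La knockdown replicate 2. Window tRNA_51398, which overlaps it by 299 bp and also holds MIR12136, gave 99.9 ± 5.92 and 143 ± 24.0 CPM (SD, n = 3), a log2 change of 0.52 (SE 0.24, edgeR adjusted p = 0.210).

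The lysine window was lower in La knockdown, and this rested on 1 control library. Window tRNA_52532 (positions 633314 to 633713), which covers MT-TK, had 1276, 509 and 384 counts in control against 250, 452 and 385 in La knockdown. Control replicate 1 stood 2.66-fold above the mean of the other control libraries, whose 150.5 and 99.5 CPM lay on both sides of the 133 and 121 CPM of La knockdown replicates 2 and 3. The log2 change was -0.76 (SE 0.40, edgeR adjusted p = 0.253) and -0.12 without control replicate 1 (edgeR adjusted p = 0.876). No other of the 11 windows was highest in control replicate 1.

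The lncRNA-labelled windows on the ATP6 and CO3 copies had the largest fitted increases, and La knockdown replicate 2 was their highest library in 4 of 4. Window lncRNA_914 (positions 633714 to 634113), which lies whole within MTATP6P1, had 33, 48 and 69 counts in control and 55, 152 and 66 in La knockdown. Its mean level was 13.6 ± 4.67 CPM in control against 28.4 ± 14.2 CPM in La knockdown (SD, n = 3), with a log2 change of 1.07 (SE 0.41, edgeR adjusted p = 0.157). Window lncRNA_25641 (positions 634331 to 634730), mostly within MTCO3P12, had 66, 78 and 108 counts in control and 101, 220 and 101 in La knockdown. Its 17.2, 23.1 and 28.0 CPM in control lay below its 36.2, 64.8 and 31.8 CPM in La knockdown, a log2 change of 0.96 (SE 0.34, edgeR adjusted p = 0.141). Under upper quartile factors this window passed the test (log2 change 1.27, edgeR adjusted p = 0.0495), the only call among the 11 windows over 16 alternatives; those factors moved the median of all windows from -0.05 to 0.26.

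Windows lncRNA_25642 (positions 634225 to 634624) and lncRNA_25640 (positions 634087 to 634486) cover the junction of the ATP6 and CO3 copies. The first had 135, 143 and 187 counts in control and 161, 349 and 152 in La knockdown, a log2 change of 0.73 (SE 0.32, edgeR adjusted p = 0.200), and its arms overlapped. The second had a log2 change of 0.64 (SE 0.33, edgeR adjusted p = 0.245). Without La knockdown replicate 2 the changes of lncRNA_914, lncRNA_25640, lncRNA_25642 and lncRNA_25641 were 0.56, 0.19, 0.31 and 0.56, with an edgeR adjusted p of at least 0.409.

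Counting windows rather than fitting them, the scaled ranges of the arms did not overlap in 6 of the 11 windows, all higher in La knockdown, against 14.1% of all windows tested. They were tRNA_52527, tRNA_52528, tRNA_51398, tRNA_52531, lncRNA_914 and lncRNA_25641, or 3 of the 5 stretches. In 0 of the 11 was La knockdown lower without overlap, against 17.9% of all windows tested. The count depended on the scaling: it was 6 with RLE factors, 4 with library size without the 50 best-read windows, 2 with library size alone and 10 with upper quartile factors, beside 15.6%, 15.1%, 8.08% and 33.3% of all windows.

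**Figure D3:**
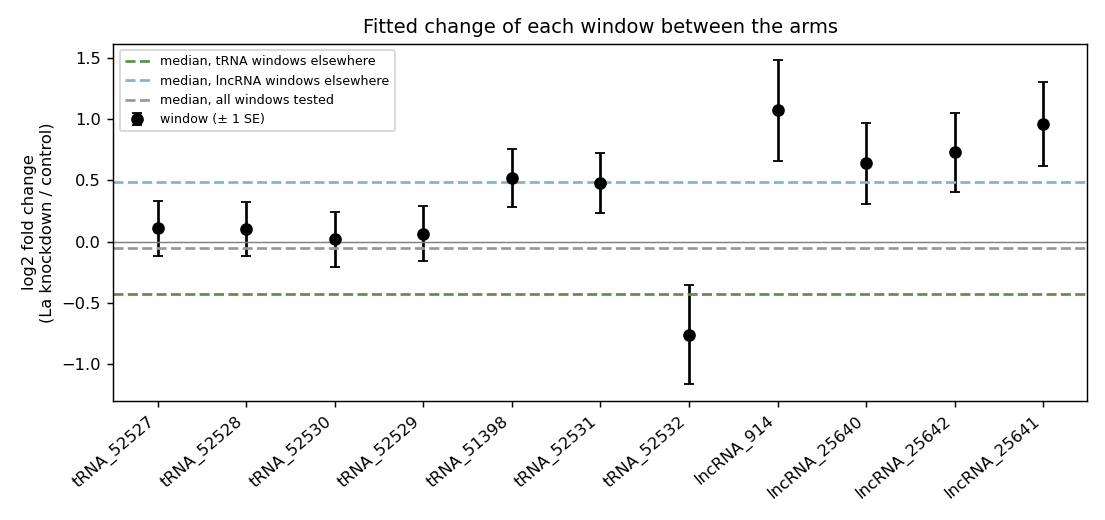
Fitted log2 fold change of each window, La knockdown over control, with 1 SE (edgeR, n = 3 per arm); dashed lines are medians over the tested tRNA windows elsewhere, the lncRNA windows elsewhere and all windows. The changes run from -0.76 in the lysine window to 1.07 in lncRNA_914, and 6 of the 7 tRNA-labelled windows lie above the median of the tRNA windows elsewhere, -0.42.

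As a share of all counts, the 11 windows together held 0.141%, 0.142% and 0.142% in the control libraries, against 0.130%, 0.174% and 0.140% in the La knockdown libraries. The 95% Wilson intervals of single libraries, which cover counting error only, spanned 0.138% to 0.145% in control replicate 1 and 0.170% to 0.178% in La knockdown replicate 2. The arms differed by less than the libraries of La knockdown did among themselves (two-sided exact permutation p = 1) and the difference turned to -0.00674 percentage points without La knockdown replicate 2. The share depended on its denominator. Of the counts outside the rRNA, 5S rRNA and pre-45S rRNA windows, the 11 windows held 0.286%, 0.327% and 0.339% in control against 0.388%, 0.583% and 0.341% in La knockdown. Each La knockdown library then lay above each control library, by 0.120 percentage points in the mean or 1.38-fold (exact permutation p = 0.1, the smallest possible). The counts of the 11 windows are the same in both shares, so only the denominator sets this result apart from the share of all counts. How many of all windows tested would separate in this way was not counted. The best-read window, tRNA_52529, made up 21.4% ± 0.804 of these counts in control and 20.4% ± 0.811 in La knockdown (SD, n = 3, exact permutation p = 0.2).

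The 4 lncRNA-labelled windows, with a median log2 change of 0.84, stood beside 71 tested lncRNA windows elsewhere with a median of 0.48. Of those 71, 50 were fitted higher, and in 21 (29.6%) the La knockdown libraries were higher without overlap, against 2 of the 4. The windows most like the 7 tRNA-labelled ones are the tRNA windows elsewhere in the table, 527 in all. They held 15.5% ± 0.352 of all counts in control and 11.4% ± 1.58 in La knockdown (SD, n = 3; p = 0.1 in an exact permutation test, which can give no less). Of 439 tested, 31 (7.06%) were called lower and 0 higher, and 0 calls among the 7 tRNA-labelled windows is near that share. The median log2 change was -0.42 over the 439 and 0.10 over the 7. All 11 windows were then set against the other tRNA windows as the log2 ratio of summed counts, a measure that needs no library scaling. Its denominator is the counts whose share was lower in La knockdown, so it does not test a change of the 11 windows by themselves. Their own share of all counts was 1.04-fold in La knockdown. The log2 ratio was -6.77, -6.74 and -6.80 in the control libraries against -6.40, -5.85 and -6.55 in the La knockdown libraries. Each La knockdown library was above each control library, the mean difference was 0.50 or 1.42-fold, and the exact permutation test gave p = 0.1, the smallest possible for 3 against 3. Without La knockdown replicate 2 the difference was 0.29. With the 7 tRNA-labelled windows alone it was 0.43, and without tRNA windows elsewhere that overlap a gene of mitochondrial origin it was 0.50, both with an exact permutation p of 0.1.

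By stretch, the best-read window was higher against the other tRNA windows in every La knockdown library than in any control library in 4 of 5 stretches, though no p under 0.1 can be reached. On the same ratio 31.1% of all windows tested were higher without overlap and 9.4% lower, beside the lower share of counts in the tRNA windows that form the denominator. The difference in log2 ratio was 0.48 for the glutamine, 0.43 for the tryptophan, 0.84 for the serine and aspartate and 1.03 for the ATP6 and CO3 stretch. Each had an exact permutation p of 0.1, or 0.125 adjusted over the 5 stretches. For the lysine stretch the difference was -0.22 (exact permutation p = 0.7), and the arms overlapped.

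**Figure D4:**
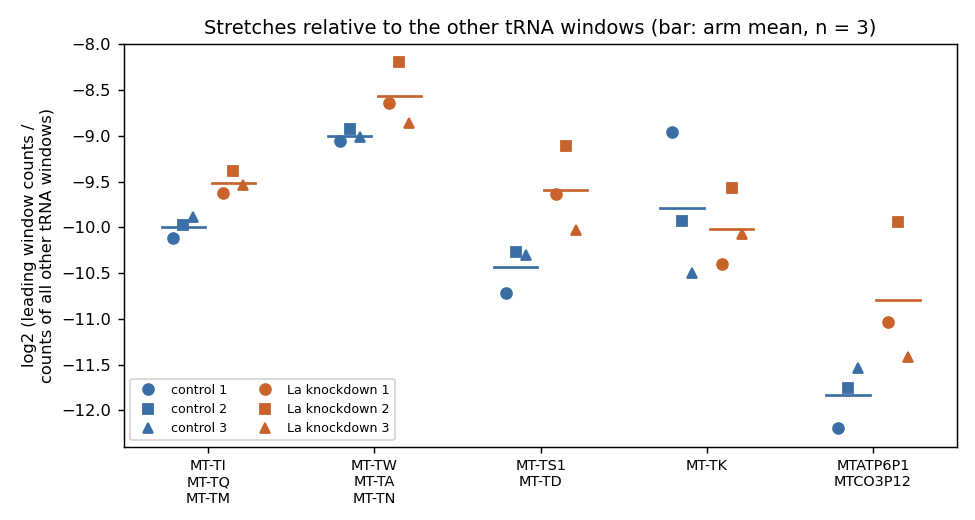
Log2 ratio of the counts of the leading window of each of the 5 stretches to the summed counts of all other tRNA windows, per library; bars are arm means of 3 libraries. The La knockdown libraries lie above the control libraries in every stretch but the lysine one, where control replicate 1 is the highest point at -8.95.

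La knockdown replicate 2 stood apart from the other La knockdown libraries in these windows. It had the highest CPM of the 6 libraries in 8 of the 11 windows, against 29% of all windows tested. Among the lncRNA windows elsewhere it was highest in 53.5%, with a median log2 ratio to La knockdown replicates 1 and 3 of 0.38, against 4 of 4 and 1.00 for the lncRNA-labelled windows here. Its CPM relative to the mean of La knockdown replicates 1 and 3 was 2.21-fold in lncRNA_914 and 1.91-fold in lncRNA_25641, and 0.921-fold in the glutamine window tRNA_52527. The lncRNA-labelled windows thus departed most and the glutamine windows did not.

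Windows elsewhere that overlap a gene of mitochondrial origin were compared for the same pattern. There were 74, of which 36 were tested, and 0 were called in either direction by edgeR or by DESeq2, with 5 higher and 0 lower at an unadjusted p under 0.05 in edgeR. DESeq2 had 8 higher and 0 lower at that level, where its share over all windows was not counted. Their median log2 change was 0.35, and 0.05 without La knockdown replicate 2. La knockdown replicate 2 was the highest library in 24 of the 36, and in 11 of the 12 on MTRNR2L genes, nuclear copies of the mitochondrial 16S rRNA gene. At MTRNR2L8, MTRNR2L2 and MTRNR2L12 windows on the same gene overlap and share reads, so the 12 are not separate observations. In the MTRNR2L8 window rRNA_52692 (chromosome 11, positions 10509163 to 10509562) the counts were 1326, 1399 and 1522 in control and 1187, 5067 and 1357 in La knockdown. The MTRNR2L2 window rRNA_53188 (chromosome 5, positions 80651022 to 80651421) had 396, 494 and 610 counts in control and 435, 2650 and 530 in La knockdown, where replicate 2 was 4.84-fold above the mean of the other La knockdown libraries. A second MTRNR2L8 window, tRNA_52691, had 723, 653 and 640 counts in control and 495, 1707 and 643 in La knockdown. Replicate 2 is thus far above the other 5 libraries in each of these 3 windows, of which rRNA_52692 and tRNA_52691 overlap and so share reads. What part this library's excess has in the changes of the chromosome 1 windows beyond the values given without it was not tested.

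The best-read window of mitochondrial origin behaved otherwise. Windows tRNA_52032 and tRNA_53194 on chromosome 5, whose counts were identical, overlap MTND6P3 and MTCYBP35, copies of the genes that flank the glutamate tRNA in mitochondrial DNA. They had 17952, 21639 and 11306 counts in control and 7012, 10202 and 13372 in La knockdown, a log2 change of -0.53 (SE 0.31, edgeR adjusted p = 0.282). The lowest control library lay below the highest La knockdown library, and replicate 2 was 0.894-fold of the mean of the other La knockdown libraries.

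**Figure D5:**
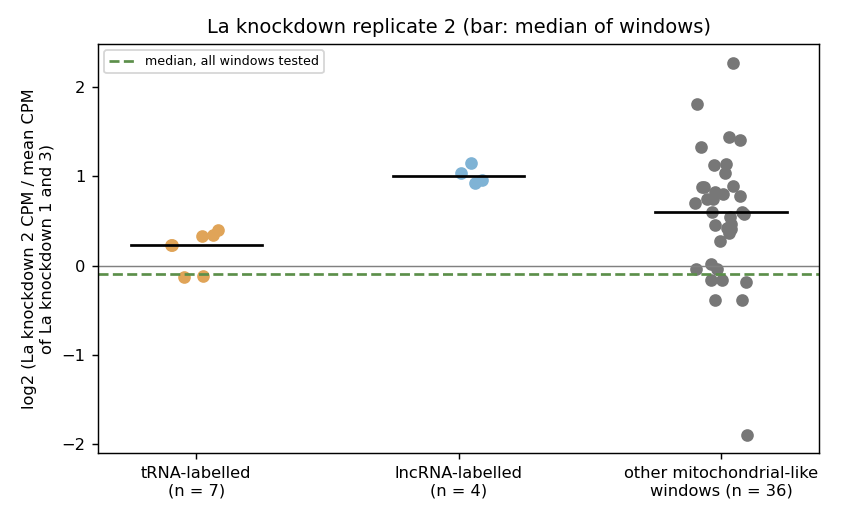
Log2 ratio of CPM in La knockdown replicate 2 to the mean CPM of La knockdown replicates 1 and 3, per window, for the 7 tRNA-labelled and 4 lncRNA-labelled windows of the chromosome 1 copy and 36 tested windows of mitochondrial origin elsewhere; bars are medians over windows, which are not replicates. The medians are 0.24, 1.00 and 0.60, beside -0.10 over all windows tested (dashed).

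The promoters of listed nuclear genes whose products make, cut, modify or degrade mitochondrial RNA or, as TWNK and POLG, act on mitochondrial DNA gave almost no small RNA reads. Of 42 listed symbols, among them FASTKD4 and TBRG4 for the same gene, 38 had a window, 64 windows in all. None had enough reads to be tested, beside 1064 tested of the 53603 windows in the table. Summed over these windows there were 103 counts in the 3 control libraries and 102 in the 3 La knockdown libraries. The most were at TWNK, the mitochondrial DNA helicase, with 0, 6 and 2 counts in control and 0, 5 and 2 in La knockdown, and at TRMT10C, a subunit of the mitochondrial RNase P, with 2, 6 and 2 against 2, 1 and 0. SLIRP, PUS1 and TFAM had at most 4 counts in a library. At this depth a change at these promoters was not detectable.

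In the authors' deposited table of the comparison, 0 of the 11 windows had an adjusted p under 0.05, among 82 called of 53603 windows. Its log2 fold changes are lower throughout than those fitted here, by a median of 0.29 on the log2 scale for the 11 windows (a median of authors' minus fitted of -0.27 over all windows tested). In the authors' deposited table the glutamine window tRNA_52527 had -0.15 and the tryptophan window tRNA_52529 had -0.21, on the other side of 0 from the fit here. The authors' deposited table gave -1.02 for the lysine window tRNA_52532, with a p of 0.00147 that became 0.581 on adjustment, and 0.65 for lncRNA_25641, with a p of 0.0552.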

How the data were processed

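Counts were deposited by the authors as raw reads per 400 bp window, per the file headers, and were used unscaled in the tests. The submitters' processing notes name Trim Galore, Bowtie2, bedtools, edgeR and the build GRCh38; versions, strand and reads with several positions were not given in the sources used here. The authors' deposited comparison gives per window p-values, an F score, and 2 log2 columns (fold change and mean CPM). Window starts were shifted by 1. The members, the gene lists and the tests were chosen with earlier results of these data known.

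Windows passing filterByExpr (1064) were fitted in edgeR 4.0.16 (R 4.3.3) with TMM factors and the arm as the single term, and adjusted by Benjamini-Hochberg over all of them. SEs were derived from the log2 change and the F statistic. For single values per library, exact permutation tests (two-sided, scipy 1.17.1) were used. Every chromosome 1 window with a mean of at least 10 counts was named, and up to 5 each of the listed genes and of the other windows of mitochondrial origin. List genes were matched to GENCODE 29 transcript starts within 50 bp. Pseudogenes were aligned to their mitochondrial genes with Biopython 1.88. The comparisons by stretch, of overlapping windows and of La knockdown replicate 2 were chosen after values were seen, as were the splits by label. Alternatives were other scalings, DESeq2 1.42.0, other filters, robust dispersion, collapsed identical rows, a replicate block and each library left out. The fit was tested on simulated counts. Figures used matplotlib 3.10.9.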

Additional observations from a re-analysis of the deposited data

How the results depend on the processing

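Over 176 refits of the 11 windows, 164 left the sign and the call as they were, 11 changed sign and 1 passed the threshold. The glutamine and tryptophan windows supplied the changes of sign. Without a filter tRNA_52527, tRNA_52528, tRNA_52530 and tRNA_52529 had log2 changes of -0.14, -0.14, -0.24 and -0.20, and with library size alone tRNA_52530 and tRNA_52529 had -0.0529 and -0.0106. Over the fits without one library the 4 ranged from -0.0383 to 0.13, -0.0423 to 0.13, -0.0766 to 0.0653 and -0.0358 to 0.10. Upper quartile factors gave 1 called window among the 11 and 1 among the other windows of mitochondrial origin. Those other windows had 2 calls without a filter, 1 with the replicate block and 0 to 1 without one library, against 0 otherwise. The share of counts changed by 0.00618 percentage points with all windows, by -0.00205 with 1 window per stretch, by -0.00163 with the tRNA-labelled windows alone, by 0.120 with the rRNA classes out of the denominator, by 0.0134 with TMM library sizes, and by -0.00674 to 0.0152 without one library. The change in the share of the best-read window turned from -0.993 to 0.597 percentage points with 1 window per stretch and ran from -1.45 to -0.670 without one library. The log2 ratio to the other tRNA windows ranged from 0.29 to 0.64 without one library. The cause was not tested.

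The replicate block called 0 of the 11 windows, and the exact test over replicate numbers gave p = 0.25, its smallest, for the log2 ratio of 0.50. Whether libraries of the same number belong together was not settled. Correlations of deviations were 0.14, 0.23 and -0.46 between libraries of the same number and ran from -0.51 to 0.50 between the others. With 3 libraries per arm such values cannot decide it. Over all windows tested the block called 108, against 58 without it. With the listed nuclear genes, alternatives other than no filter left 0 windows to test. Depth limits the lncRNA-labelled windows, with 33 counts in the lowest library of lncRNA_914, and all listed promoters.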

Other observations

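The average log2 CPM in the authors' deposited table orders these windows otherwise than the deposited counts do. In the authors' deposited table the glutamine window tRNA_52527, at 8.91, stands above the tryptophan window tRNA_52529, at 8.83, while the average log2 CPM fitted here is 7.28 and 8.25, in the order of the counts. The lysine window tRNA_52532 has 6.99 there and 7.28 here. Over the 11 windows the authors' value minus the fitted one ran from -0.29 to 1.64, and over all windows tested its median was -0.11, with 5% of windows under -1.17 and 5% above 2.15.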
